A study of Mus musculus with 2 samples.

Results

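TRBV1, TRBV2, TRBV3, TRBV4 and TRBV5 are the V genes at the upstream end of the mouse TCR β-chain locus. They were followed in the TCR β-chain clonotypes of hepatic CD8αα and CD8αβ T cells. A clonotype, meaning a CDR3 nucleotide sequence with its best V and J gene, was taken when its best J hit was a TRBJ gene and its best V hit was 1 of these 5 genes, of 24 TRBV genes listed. This gave 83 of 337 TCR β-chain clonotypes in the CD8αα library, with 860 of 2995 reads, and 168 of 915 clonotypes in the CD8αβ library, with 436 of 1850 reads.

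The cells were sorted from the liver of C57BL/6 mice of the dnTGFβRII genotype (TG mice), with an age of 10 weeks in the labels. Both libraries come from this genotype, and for liver cell preparations the authors' methods state a younger age of TG mice. Their transgene, read from the mouse CD4 promoter and so active in CD4+ and CD8+ T cells, encodes a human TGF-β receptor II that binds TGF-β without passing on its signal, and the mice develop an autoimmune disease of the bile ducts. CD8αβ is the usual coreceptor of cytotoxic T cells, and CD8αα is a homodimer known from T cells of the gut epithelium. RNA was sequenced in bulk, from a lone library of CD8αα and a lone library of CD8αβ T cells (1 each, without replicates), and the number of mice behind a library is not given in the sources used here.

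A TCR β-chain gene is built in the thymus by V(D)J recombination, which joins a V, a D and a J gene, removes bases from their ends and adds new ones between them. The joined stretch is the CDR3, the loop of the receptor that touches the peptide. T cells that descend from the same precursor share a CDR3, so many reads of 1 clonotype show an expanded clone or a high level of its RNA, which bulk reads cannot tell apart, and the number of clonotypes of a V gene counts separate rearrangements.

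Since there is 1 library of each kind, the tests compare these libraries and not the conditions. Tests on reads also take the reads of 1 clonotype as separate draws, so their p-values overstate the evidence where 1 clone holds most reads. Reads were counted without molecular identifiers as far as described and may repeat a molecule, so the 95% Wilson intervals (in parentheses after a share) and the floor of 3 reads cover counting error only. That floor was 0.100% of TCR β-chain reads in the CD8αα library and 0.162% in the CD8αβ library. The lists hold receptor chains and no CD8 gene, so the sort could not be checked. Immunoglobulin chains, which mark B cells, made up 21.8% of the CD8αα reads of every chain and 13.7% of the CD8αβ reads, and TCR γ-chains made up 7.04% and 0.560%. Their part in the results was not tested. TCR α-chains of invariant NKT cells (TRAV11-TRAJ18) and of MAIT cells (TRAV1-TRAJ33) had 0 reads in both libraries, which allows shares of up to 0.222% (CD8αα) and 0.336% (CD8αβ) of TCR α-chain reads.

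All 5 genes lie on the plus strand of chromosome 6 (GRCm38, GENCODE annotation) as V genes with 2 exons each. Trbv1 (ENSMUSG00000076461.2, 40891229 to 40891885, Tcrb-V2 in the older naming) stands alone, since 155454 bases with 10 other annotated genes, 6 of them protein-coding, separate it from Trbv2. Trbv2 (ENSMUSG00000076462.2, 41047340 to 41047995, Tcrb-V4), Trbv3 (ENSMUSG00000076463.2, 41048290 to 41048828, Tcrb-V16), Trbv4 (ENSMUSG00000107486.1, 41059394 to 41059886, Tcrb-V10) and Trbv5 (ENSMUSG00000076465.2, 41062332 to 41062803, Tcrb-V1) sit within 15464 bases. From the end of Trbv5 to the first D or J gene are 470397 bases, so these genes are joined over a long distance. The 17 germline bases from the conserved cysteine codon to the recombination end of each gene, which in Trbv3 lies at 41048824 and elsewhere at the annotated gene end, are the part of V that can enter the CDR3. They are shown 5′ to 3′, with capitals for an in-frame stop codon.
TRBV1: tgcacctgcagtgcaga
TRBV2: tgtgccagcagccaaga
TRBV3: tgtgccagcagcttagc
TRBV4: tgtgccagcagcTAAga
TRBV5: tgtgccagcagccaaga
TRBV1 differs from the other 4 in its opening letters. TRBV2 and TRBV5 have the same letters throughout, so this stretch does not tell them apart, and their assignment rests on V bases upstream of it. TRBV4 alone holds a stop codon, TAA, at base 13 of the stretch. The CDR3s of 64 of 65 TRBV1 clonotypes and of all 20 TRBV2, 82 TRBV3, 46 TRBV4 and 38 TRBV5 clonotypes began with these letters over the bases assigned to V. No best V hit among the 251 clonotypes was tied with another V gene.

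The largest clonotype of each gene in each library shows the joints the reads fell on. Lower case marks bases of V at the start and of J at the end, with any P bases, and capitals mark the bases between V and J, which hold the D gene and added bases.
TRBV1-TRBJ2-5, CD8αα, 121 reads: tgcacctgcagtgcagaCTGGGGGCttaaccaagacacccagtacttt
TRBV1-TRBJ1-6, CD8αβ, 50 reads: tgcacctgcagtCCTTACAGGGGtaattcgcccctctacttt
TRBV2-TRBJ2-4, CD8αα, 9 reads: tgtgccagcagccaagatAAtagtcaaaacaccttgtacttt
TRBV2-TRBJ2-7, CD8αβ, 9 reads: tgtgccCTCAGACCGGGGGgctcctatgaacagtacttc
TRBV3-TRBJ1-1, CD8αα, 25 reads: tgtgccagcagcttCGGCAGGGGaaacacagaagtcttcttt
TRBV3-TRBJ2-5, CD8αβ, 9 reads: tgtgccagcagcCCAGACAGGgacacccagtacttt
TRBV4-TRBJ2-1, CD8αα, 150 reads: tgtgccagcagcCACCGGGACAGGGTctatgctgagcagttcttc
TRBV4-TRBJ2-7, CD8αβ, 91 reads: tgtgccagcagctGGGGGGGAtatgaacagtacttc
TRBV5-TRBJ2-7, CD8αα, 231 reads: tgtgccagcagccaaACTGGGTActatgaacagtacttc
TRBV5-TRBJ2-7, CD8αβ, 5 reads: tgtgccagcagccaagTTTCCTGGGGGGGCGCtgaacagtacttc
The TRBV5 gene paired with TRBJ2-7 in its largest clonotype of both libraries, but the joints had different letters and lengths. TRBV4 kept 12 V bases in its largest clonotype of CD8αα T cells and 13 in that of CD8αβ T cells, so neither kept the whole stop codon, and the latter ended after its opening letter.

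TRBV5 was the member whose share differed most between the libraries, and it did so by reads and by clonotypes. TRBV5 held 321 CD8αα reads, 10.7% of the TCR β-chain (9.66 to 11.9), and 29 CD8αβ reads, 1.57% (1.09 to 2.24). The difference was 9.15 percentage points (95% interval 7.90 to 10.4), or 6.84-fold (two-sided Fisher's exact test, Benjamini-Hochberg adjusted over 24 genes, p = 2.03e-38). It ranked second among the 24 genes by reads in the CD8αα library and 17th in the CD8αβ library. Counted by rearrangements, TRBV5 had 21 CD8αα clonotypes, 6.23% (4.11 to 9.34), and 17 CD8αβ clonotypes, 1.86% (1.16 to 2.96). This difference of 4.37 percentage points (1.99 to 7.56), or 3.35-fold, also passed the test (Fisher's exact test, adjusted p = 0.00593). Without the largest clonotype of every V gene the read difference was 5.13 percentage points (Fisher's exact test, adjusted p = 2.22e-11). Among clonotypes with at least 2 reads the clonotype difference was of like size, 4.29 percentage points, but did not pass (Fisher's exact test, adjusted p = 0.125).

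TRBV2 had the fewest clonotypes of the 5 in both libraries and was lower in CD8αα T cells by reads. It had 13 CD8αα reads, 0.434% (0.254 to 0.741), and 29 CD8αβ reads, 1.57% (1.09 to 2.24), a difference of -1.13 percentage points (-1.83 to -0.569, Fisher's exact test, adjusted p = 2.63e-04). Its clonotype shares were close, with 5 clonotypes (1.48%) and 15 clonotypes (1.64%), and the interval of their difference ran from -1.50 to 1.89 percentage points (Fisher's exact test, adjusted p = 1). A difference in the share of rearrangements was not detectable at this depth.

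TRBV1, TRBV3 and TRBV4 did not pass the test by reads or by clonotypes. TRBV1 held 7.21% of CD8αα reads (6.34 to 8.19) and 7.57% of CD8αβ reads (6.45 to 8.86), with an interval of the difference from -1.92 to 1.13 percentage points (Fisher's exact test, adjusted p = 0.710). TRBV3 held 4.17% and 5.35% (interval -2.48 to 0.0388, adjusted p = 0.100), and TRBV4 held 6.18% and 7.51% (interval -2.86 to 0.109, adjusted p = 0.107, both by Fisher's exact test). By clonotypes TRBV1 had 22 (6.53%) and 43 (4.70%), TRBV3 had 24 (7.12%) and 58 (6.34%), and TRBV4 had 11 (3.26%) and 35 (3.83%). The clonotype intervals reached 5.20 percentage points for TRBV1 and 4.33 for TRBV3, so a difference near the size seen for TRBV5 lay within or close to them. The TRBV4 value depended on which dominant clones were counted. When the largest TCR β-chain clonotype of each library was left out, which in the CD8αβ library is the TRBV4-TRBJ2-7 clonotype shown above, its read difference turned to 5.20 percentage points (CD8αα minus CD8αβ, Fisher's exact test, adjusted p = 1.60e-12). That setting removes the 91 TRBV4 reads from the CD8αβ library and leaves the 150-read TRBV4 clonotype in the other. It also removes a 663-read clonotype outside these genes from the CD8αα total, which raises the shares of the genes that lost no reads there. Without the largest clonotype of each V gene in both libraries the TRBV4 difference was -0.54 (Fisher's exact test, adjusted p = 0.556).

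These calls are read against the rest of the locus. By reads, 14 of the 24 TRBV genes (58.3%) were called, 2 higher and 12 lower in CD8αα T cells, so a call by reads was common. Among the members 1 was higher (TRBV5) and 1 lower (TRBV2), and among the other 19 genes 1 was higher and 11 were lower. By clonotypes, 1 of the 24 genes (4.17%) was called, and that gene was TRBV5. The median difference over all 24 genes was -1.08 percentage points by reads and -0.14 by clonotypes, and over the 5 members it was -1.13 and 0.783. Read shares of a library divide 1 total, so a large share of 1 gene lowers the others. TRBV16 held 30.1% of CD8αα reads and 10.9% of CD8αβ reads. A single clonotype outside the members held 663 CD8αα reads (22.1%). Without the largest clonotype of each library, 11 V genes were called by reads. TRBV2 stayed lower, at -1.09 percentage points (Fisher's exact test, adjusted p = 0.00278). The part of these shares in the lower calls was not tested.

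**Figure D1:**
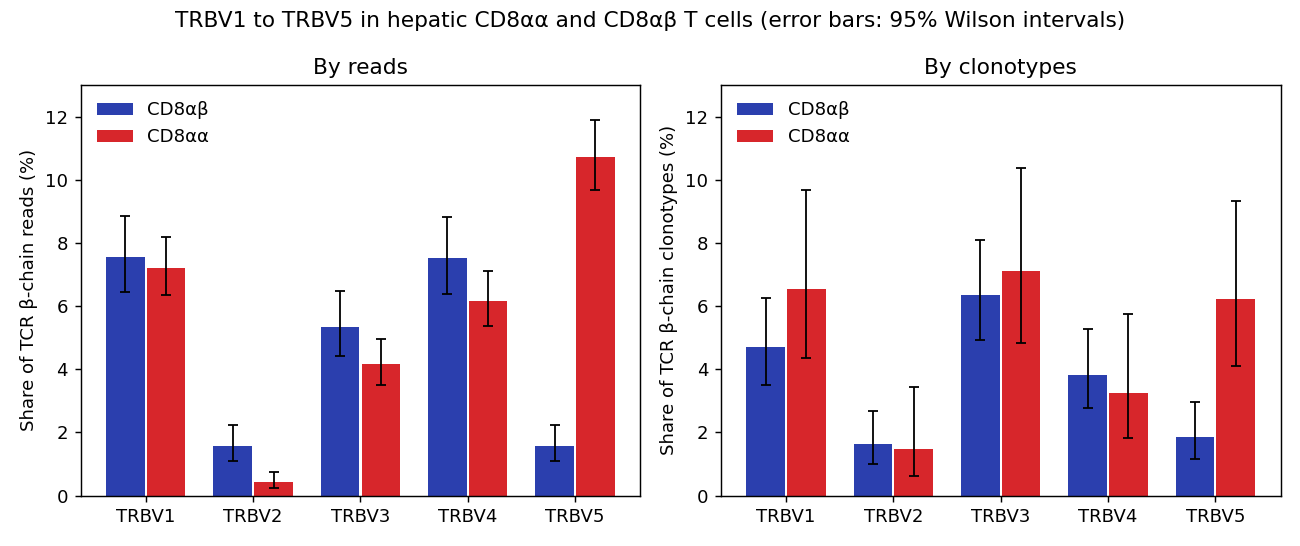
Share of TCR β-chain reads (left, %) and of TCR β-chain clonotypes (right, %) of each gene in CD8αβ (blue) and CD8αα (red) T cells, 1 library each, with 95% Wilson intervals as error bars. TRBV5 stands apart on both sides (10.7% against 1.57% of reads, 6.23% against 1.86% of clonotypes), whereas TRBV2 passed the test by reads and not by clonotypes.

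By the log2 ratio of clonotype shares, CD8αα over CD8αβ, the nearest genes among 13 others with at least 20 clonotypes were TRBV17 for TRBV1 (0.59 against 0.47), TRBV13-3 for TRBV2 (-0.17 against -0.14), TRBV13-2 for TRBV3 (0.14 against 0.17) and TRBV19 for TRBV4 (-0.20 against -0.23). TRBV5 had a log2 ratio of 1.75, and the nearest gene, TRBV17, was at 0.59. Among these 13 genes the 4 other members thus each had a close match and TRBV5 did not. Below the limit of 20 clonotypes, TRBV20 was at 0.93 (7 CD8αα and 10 CD8αβ clonotypes) and TRBV18 at 1.44 (1 and 1), nearer to TRBV5 than TRBV17.

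Clone sizes, given here without a test, ranged from 1 read to 231. In CD8αα T cells, 14 member clonotypes had at least 10 reads and together held 689 of the 860 member reads (80.1%). In CD8αβ T cells, 3 did, with 159 of 436 reads (36.5%). Clonotypes seen with 1 read made up 36 of 83 member clonotypes in the CD8αα library (43.4%) and 100 of 168 in the CD8αβ library (59.5%), against 28.0% and 56.9% for the other TRBV genes.

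Most TRBV5 and TRBV4 reads of CD8αα T cells came from 1 clonotype each. The largest TRBV5 clonotype held 231 of 321 reads there (72.0%), followed by clonotypes of 21 and 11 reads, while in CD8αβ T cells the largest held 5 of 29 (17.2%). The effective number of clonotypes, the inverse of the summed squared read shares within the gene, was 1.90 and 11.8 for TRBV5. The largest TRBV4 clonotype held 150 of 185 reads in the CD8αα library (81.1%) and 91 of 139 in the CD8αβ library (65.5%), with 1.50 and 2.31 effective clonotypes. TRBV4 was thus the gene with the most uneven clones in both libraries, and its similar read shares rested on a different clone in each.

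TRBV1 was also uneven, with 121 of 216 reads (56.0%) in its largest CD8αα clonotype and 50 of 140 (35.7%) in its largest CD8αβ clonotype. TRBV3 was the most even of the genes. Its largest clonotype held 25 of 125 reads in the CD8αα library (20%) and 9 of 99 in the CD8αβ library (9.09%), with 8.52 and 38.4 effective clonotypes. TRBV2 had a largest clonotype of 9 reads in both libraries.

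The number of clonotypes seen depends on reads, so each gene was also set to the reads of its shallower library. TRBV3 then had an expected 21.4 clonotypes in the CD8αα library against 58 in the CD8αβ library at 99 reads, TRBV1 had 19.1 against 43 at 140 reads, and TRBV4 had 9.26 against 35 at 139 reads. TRBV5 had 6.82 against 17 at 29 reads, and TRBV2 had 5 against 8.40 at 13 reads. The other TRBV genes together had 222 against 747 at 1414 reads, so fewer clonotypes at equal reads were found in CD8αα T cells for the 5 genes and for the rest alike. These are values without a test.

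**Figure D2:**
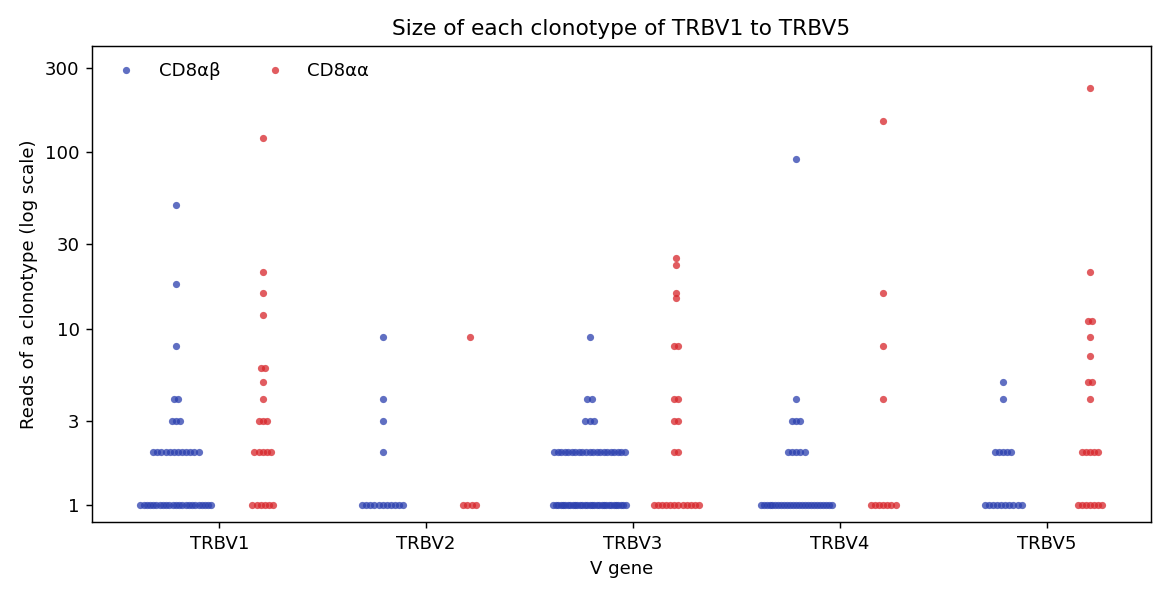
Reads of each clonotype (log scale) of TRBV1 to TRBV5, a point for each clonotype, in CD8αβ (blue) and CD8αα (red) T cells. The clonotypes of 231 reads (TRBV5), 150 and 91 reads (TRBV4) and 121 reads (TRBV1) lie far above the rest of their genes in the same library. In CD8αβ T cells the largest TRBV1 clonotype, with 50 reads, is followed by 1 of 18 reads. TRBV3 has a graded series up to 25 reads in CD8αα T cells.

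The J partners differed with the unit counted. A total of 53 V-J pairs of the 5 genes were listed. By reads, 18 of them (8 higher and 10 lower in CD8αα T cells) were called, 34.0%, beside 33.6% of all 220 V-J pairs. By clonotypes none of the 53 was called, as for all 220 pairs (0.0%), of which 5 had an unadjusted p under 0.05 (Fisher's exact test). TRBV3-TRBJ2-1 (6 clonotypes against 3 in CD8αβ T cells, unadjusted p = 0.0143), TRBV5-TRBJ1-5 (3 against 0, unadjusted p = 0.0194) and TRBV5-TRBJ1-1 (5 against 3, unadjusted p = 0.0367) were among these 5, each with an adjusted p of 1 by Fisher's exact test.

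TRBV1 used 9 of 12 J genes in the CD8αα library and 12 in the CD8αβ library, most often TRBJ2-7 by clonotypes (5 of 22 and 10 of 43). By reads its main partner was TRBJ2-5 in the CD8αα library and TRBJ1-6 in the CD8αβ library, and each of these was the single large clonotype shown above. TRBV2 had TRBJ2-5 as its most frequent partner by clonotypes in both libraries, with 2 of 5 and 4 of 15.

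TRBV3 had TRBJ2-7 in 18 of 58 CD8αβ clonotypes and in 3 of 24 CD8αα clonotypes, where TRBJ2-1 led with 6. By reads TRBJ1-1 led in CD8αα T cells with 64 of 125 reads (51.2%), spread over 4 clonotypes, 3 of which had at least 10 reads. The reads of its main partner were thus spread over several large joints, which are shown because they end in the same J gene.
TRBV3-TRBJ1-1, 25 reads: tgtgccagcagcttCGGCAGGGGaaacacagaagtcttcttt
TRBV3-TRBJ1-1, 23 reads: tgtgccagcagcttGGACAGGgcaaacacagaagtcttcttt
TRBV3-TRBJ1-1, 15 reads: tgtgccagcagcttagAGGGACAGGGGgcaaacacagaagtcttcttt

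TRBV4 differed in its J gene between the libraries by reads. TRBV4-TRBJ2-7 had 105 reads in 10 clonotypes in the CD8αβ library, 75.5% of TRBV4 reads there, and 0 reads in the CD8αα library, which allows up to 0.100% of TCR β-chain reads. TRBV4-TRBJ2-1 had 162 reads in 6 of the 11 TRBV4 clonotypes of CD8αα T cells (87.6% of its reads) and 12 reads in 7 of 35 clonotypes of CD8αβ T cells. Both pairs passed by reads (Fisher's exact test over 220 pairs, adjusted p = 2.11e-43 and 3.07e-20) and neither passed by clonotypes (unadjusted p = 0.0707 and 0.124, adjusted p = 1, Fisher's exact test).

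TRBV5 had TRBJ2-7 as its main partner by reads in both libraries, with 238 of 321 reads (74.1%) and 12 of 29 (41.4%). By clonotypes it used TRBJ1-1 and TRBJ2-7 equally in the CD8αα library, with 5 each of 21, and TRBJ2-7 most in the CD8αβ library, with 6 of 17. Its next 3 CD8αα clonotypes by reads were all joined to TRBJ1 genes and are shown for comparison with the TRBJ2-7 joint above.
TRBV5-TRBJ1-1, 21 reads: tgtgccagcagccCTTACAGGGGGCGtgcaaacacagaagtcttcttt
TRBV5-TRBJ1-6, 11 reads: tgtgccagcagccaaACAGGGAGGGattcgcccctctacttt
TRBV5-TRBJ1-5, 11 reads: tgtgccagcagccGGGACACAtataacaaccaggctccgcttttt
Genes of the TRBJ2 cluster were the partner of 9 of 21 TRBV5 clonotypes in the CD8αα library (42.9%, 24.5 to 63.5) and of 11 of 17 CD8αβ clonotypes (64.7%, 41.3 to 82.7). Over all TRBV genes the TRBJ2 share was 67.4% and 68.4%. The TRBV5 difference did not pass the test (Fisher's exact test, adjusted p = 1), nor did that of any of 21 TRBV genes (0.0%), none of which had an unadjusted p under 0.05. For TRBV1 the TRBJ2 share was 63.6% and 58.1%, for TRBV3 62.5% and 74.1%, for TRBV4 72.7% and 88.6%, and for TRBV2 100% and 80.0%.

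**Figure D3:**
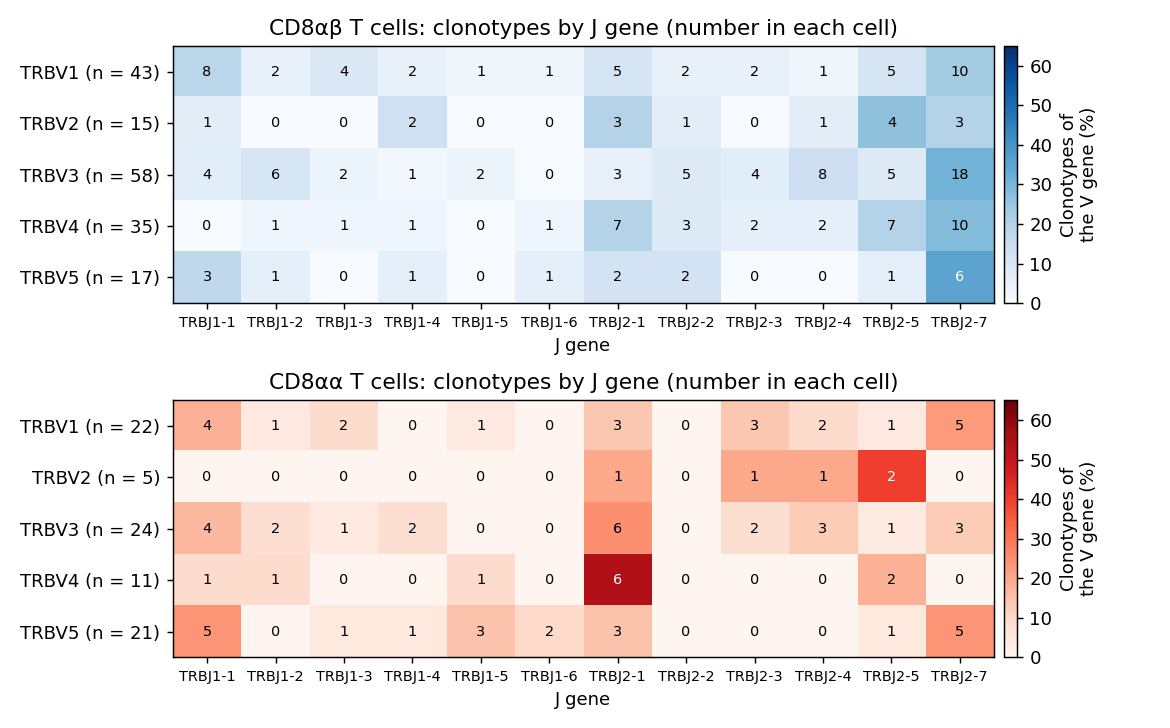
Number of clonotypes of each V gene (vertical axis) with each J gene (horizontal axis) in CD8αβ (top, blue) and CD8αα (bottom, red) T cells, with colour for the percentage of the clonotypes of that V gene. TRBV4 had 10 CD8αβ and 0 CD8αα clonotypes with TRBJ2-7, and TRBV5 in CD8αα T cells was spread over TRBJ1 and TRBJ2 genes.

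The germline ends of the 5 genes were cut back by different mean lengths, with similar values in both libraries. These values were not tested. TRBV4 lost 4.73 ± 0.905 bases (SD over 11 clonotypes) in the CD8αα library and 4.57 ± 1.09 (35 clonotypes) in the CD8αβ library. In lists without stop codons its germline TAA forces a loss of at least 3 bases. Its mean is therefore not a like measure beside those of the other genes. TRBV3 lost 3.42 ± 1.56 (24 clonotypes) and 3.64 ± 1.52 (58 clonotypes). TRBV5 lost 2.10 ± 1.76 (21 clonotypes) and 2.47 ± 1.91 (17 clonotypes), near the 2.53 and 2.61 of the other TRBV genes.

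TRBV1 and TRBV2 had the lowest mean losses, with TRBV1 close to TRBV5 in the CD8αα library. TRBV1 lost 1.91 ± 1.85 bases (22 clonotypes) and 1.72 ± 1.72 (43 clonotypes), and TRBV2 lost 1.20 ± 2.68 (5 clonotypes) and 1.60 ± 2.90 (15 clonotypes). An untrimmed V end was found in 12 of 20 TRBV2 clonotypes over both libraries (60.0%), in 18 of 65 of TRBV1 (27.7%), in 10 of 38 of TRBV5 (26.3%), in 2 of 82 of TRBV3 (2.44%) and in 0 of 46 of TRBV4. The TRBV4 count was fixed by its germline stop codon, since no listed CDR3 of these genes holds one. TRBV2 and TRBV5, which have the same 17 letters, thus kept them whole in 60.0% and 26.3% of clonotypes. Clonotypes of a gene share their libraries and are not replicates.

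All 46 TRBV4 clonotypes had lost at least 3 bases, against 475 of 1001 clonotypes of the other TRBV genes outside the 5. The longest stretch kept was 14 of the 17 bases, so the germline TAA, which needs 15, was kept in 0 of 46. No CDR3 of the 251 member clonotypes held a stop codon or a frameshift, and whether such rearrangements were assembled and left out of the lists is not given in the sources used here. In lists without stop codons, a TRBV4 clonotype cannot keep 15 V bases in frame. The counts of 46 and 0 were thus fixed in advance. The count of 475 of 1001 comes from other genes, whose germline ends were not checked for stop codons.

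**Figure D4:**
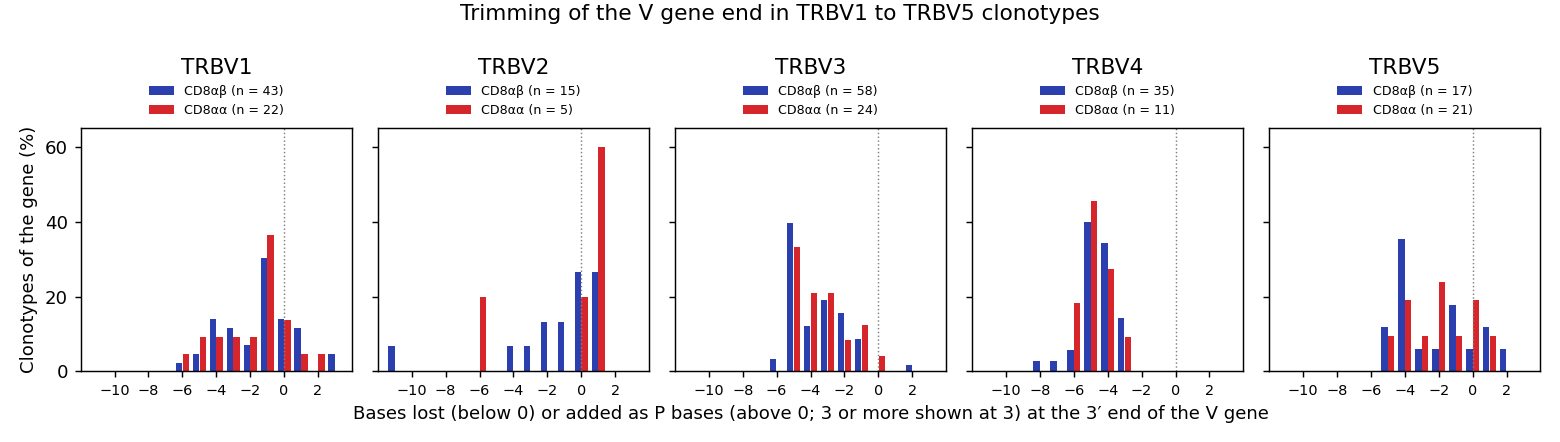
Share of the clonotypes of each gene (%) by the number of bases lost at the 3′ end of V (below 0) or added as P bases (above 0), in CD8αβ (blue) and CD8αα (red) T cells. The TRBV4 clonotypes lie at 3 or more lost bases in both libraries, TRBV3 peaks at 5 lost bases, and TRBV1 and TRBV2 lie near 0. For TRBV4 its germline stop codon sets this limit in lists without stop codons.

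CDR3 length, in amino acids from the conserved cysteine to the phenylalanine of J, was similar among the genes. The mean over clonotypes was 14 ± 1.54 and 14.3 ± 1.13 for TRBV1, 15.2 ± 2.39 and 14.4 ± 1.96 for TRBV2, 14.3 ± 1.46 and 13.9 ± 1.38 for TRBV3, 14.6 ± 1.03 and 13.7 ± 1.95 for TRBV4, and 14.2 ± 1.03 and 14.2 ± 1.52 for TRBV5 (SD over the clonotypes, CD8αα first). TRBV4 had the second longest of these means in CD8αα T cells and the shortest in CD8αβ T cells, against 14 and 13.7 in the other TRBV genes. Its mean stretch between V and J was the longest of the 5, at 12.5 bases and 10.9 bases against 9.58 and 9.12 in the other TRBV genes. This stretch starts where V ends, so the V loss forced by the TAA bears on it too. It is not a like measure beside the other genes. The bases of the stretch outside the best D hit averaged 3.36 and 3.23 for TRBV4, against 2.91 and 3.13 in the other TRBV genes. A CDR3 of at least 15 residues was found in 7 of 11 TRBV4 clonotypes in the CD8αα library (63.6%, 35.4 to 84.8) and in 8 of 35 of CD8αβ T cells (22.9%, 12.1 to 39.0). This did not pass over 21 genes (Fisher's exact test, unadjusted p = 0.0239, adjusted p = 0.251), and no gene did (0.0%), with 2 genes at an unadjusted p under 0.05.

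Weighted by reads, length followed the large clones. TRBV4 then averaged 15 residues in the CD8αα library and 12.7 in the CD8αβ library, where its largest clonotypes have 15 and 12 residues. TRBV5 averaged 13.5 and 14.3, with a largest CD8αα clonotype of 13 residues, and TRBV1 averaged 15.3 and 14.5.

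**Figure D5:**
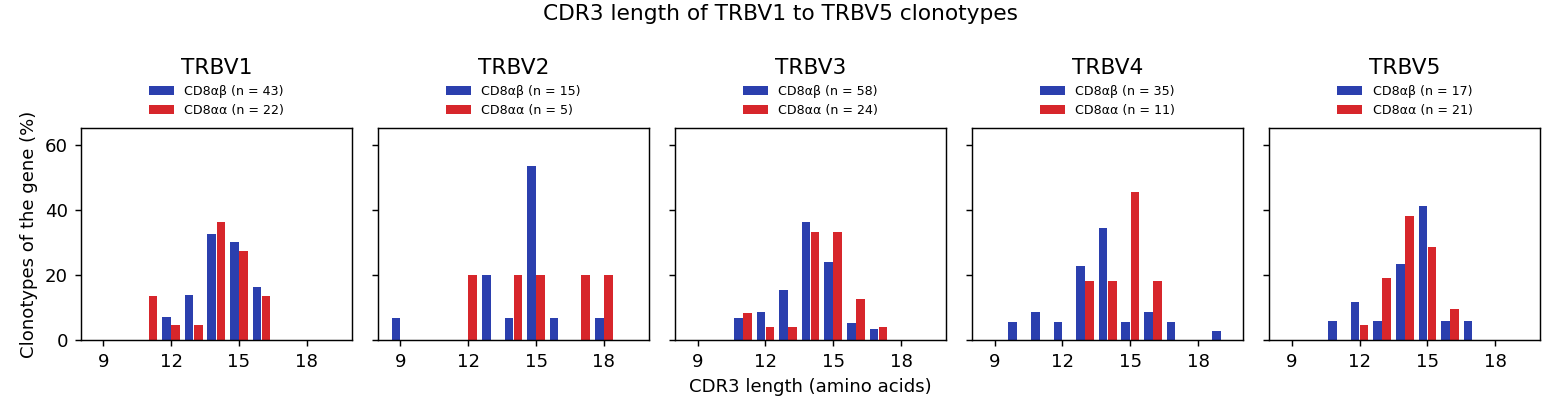
Share of the clonotypes of each gene (%) by CDR3 length in amino acids, in CD8αβ (blue) and CD8αα (red) T cells, each clonotype counted once. TRBV4 has 5 of 11 clonotypes at 15 residues in CD8αα T cells, and its CD8αβ clonotypes centre on 14.

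Few clonotypes were found in both libraries, for the 5 genes as for the others. None of the 83 clonotypes in the CD8αα library was among the 168 in the CD8αβ library by nucleotide CDR3, V and J (0.0% of each), and 3 clonotypes of the other TRBV genes were in both (1.18% of 254 and 0.402% of 747). By amino acid CDR3, V and J, 1 member was in both libraries, TRBV1-TRBJ1-2 with 3 reads in each (1.23% of the distinct CD8αα members and 0.595% of the CD8αβ members), beside 4 of the other TRBV genes (1.59% and 0.537%). Its nucleotide sequences are printed with capitals at the 4 positions where they differ.
CD8αα: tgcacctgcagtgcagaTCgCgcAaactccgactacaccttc
CD8αβ: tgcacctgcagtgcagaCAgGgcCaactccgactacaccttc
The same loop was thus encoded by different joints in the 2 libraries.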

How the data were processed

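RNA of sorted hepatic CD8αα and CD8αβ T cells was sequenced in bulk, and the authors assembled clonotypes with MiXCR. The authors deposited a count of reads for each clonotype, without normalization, and its fraction of the summed reads of every receptor chain in that library. The submitters' processing notes name the mm10 build.

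Counts were used as deposited. Shares took TCR β-chain reads or clonotypes as their total. Fisher's exact tests (two-sided) compared the libraries, with p-values adjusted by the Benjamini-Hochberg method over all 24 TRBV genes, 220 V-J pairs or the 21 genes with clonotypes in both libraries, with a threshold of 0.05. Intervals of differences were Newcombe intervals from the Wilson intervals, at 95%. Bases lost were counted from the reference points in the lists. Germline ends were read from the GRCm38 genome with GENCODE annotation, and older names from RefSeq. Genes with a like pattern had at least 20 clonotypes over both libraries. Clonotypes named were the largest of each gene and library and those with at least 10 reads, of which only some are printed. The work was done in Python 3.11.15 (scipy 1.17.1, pandas 2.3.3, numpy 2.4.6, matplotlib 3.10.9). The test of V genes by clonotypes was tried on simulated clonotype counts. The tests on reads, V-J pairs, TRBJ2 shares and CDR3 length were not. The members and lists were chosen with earlier results of these data known.

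Alternatives were another denominator, a minimum of 2 reads, merging of CDR3s that differ by 1 base from another with 10 or more times as many reads, amino acid clonotypes, rarefying, and leaving out tied V hits, shared clonotypes or the largest clonotypes.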

Additional observations from a re-analysis of the deposited data

How the results depend on the processing

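No paired analysis was possible because each cell type has 1 library. Differences are CD8αα minus CD8αβ, in percentage points. TRBV5 and TRBV2 by reads passed under each alternative tried. Of these, merging joined 0 clonotypes of the 5 genes, and leaving out tied V hits or shared clonotypes removed 0 of them, so those settings could hardly change the outcome. Without the largest clonotype of each library, TRBV1 turned from -0.356 to 1.30 and TRBV4 from -1.34 to 5.20 by reads. This setting took the 91-read TRBV4 clonotype from the CD8αβ library and a 663-read clonotype outside the 5 genes from the CD8αα library. It removed no TRBV1 clonotype, so TRBV1 changed through the totals alone. Without the largest clonotype of each V gene, TRBV1 was at 1.18, TRBV3 at 1.55 and TRBV4 at -0.54, and 9 V genes were called by reads in place of 14. With all chains as denominator, TRBV3 (-1.04) and TRBV4 (-1.31) passed, the denominator then holding the immunoglobulin and TCR γ-chain reads as well. With at least 2 reads a clonotype, TRBV4 by reads passed (-2.44), TRBV3 by clonotypes turned to -1.71, TRBV5 by clonotypes fell short (4.29), and 0 V genes in place of 1 were called by clonotypes. That filter leaves fewer clonotypes. At equal reads, TRBV5 had 6.82 in place of 21 clonotypes in CD8αα T cells and TRBV2 8.40 in place of 15 in CD8αβ T cells. Counted by reads, where single clones weigh most, the TRBJ2 share passed for TRBV1 (47.8), TRBV3 (-44.6) and TRBV4 (-8.47) and turned for TRBV5 (8.29). The share of CDR3s of at least 15 residues passed for TRBV4 (89.2) and TRBV5 (-47.4), turned and passed for TRBV1 (35.3), and turned for TRBV3 (-3.31). None of these passed by clonotypes. The cause of the other changes was not tested. With 5 to 24 clonotypes a gene in CD8αα T cells, shares within a gene are imprecise.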

Other observations

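The D and C hits of the 5 genes were looked at over both libraries. TRBD2, which lies downstream of the TRBJ1 cluster, was the best D hit of 3 of 78 clonotypes with a TRBJ1 gene and of 83 of 173 with a TRBJ2 gene, and TRBD1 was that of 56 and 57. TRBC2 was the best C hit of 62 of the 66 TRBJ1 clonotypes with a C hit. TRBC1 and TRBC2 are near-identical, so these C hits are uncertain.

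In CD8αα T cells 2 more loops of the 5 genes were each listed in a pair of clonotypes that differ by 1 base, marked by a capital.
TRBV1-TRBJ1-1, 3 reads: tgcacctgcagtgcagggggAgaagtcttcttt
TRBV1-TRBJ1-1, 2 reads: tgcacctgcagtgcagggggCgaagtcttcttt
TRBV5-TRBJ1-5, 2 reads: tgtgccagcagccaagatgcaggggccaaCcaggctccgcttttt
TRBV5-TRBJ1-5, 1 read: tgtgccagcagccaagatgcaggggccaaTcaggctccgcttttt
Their read counts were too alike for the merging rule, which needs at least 10 times the reads. In the TRBV5 pair the differing base lies within the bases assigned to J. There the 11-read TRBV5-TRBJ1-5 joint shown above has the c of the 2-read clonotype. Whether either pair holds a read error in place of separate joints was not tested. Counted as amino acid clonotypes, which joins each pair, the TRBV5 difference by clonotypes was 4.14 percentage points.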
